A study of Mus musculus with 6 samples.

Results

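Chemokines, their receptors and a set of fibroblast cytokines were examined in immortalized mouse fibroblasts (MF). Members were taken by gene symbol alone: the numbered CC and CXC chemokines and chemokine receptors, the numbered atypical receptors, *Cx3cl1* and *Cx3cr1*, and 11 cytokines. This gave 50 of the 19078 genes listed, of which 38 encode ligands or cytokines and 12 encode receptors. RNAseq was performed on poly(A)-selected RNA from 3 *Ms4a15* OE and 3 control libraries, without further treatment named in the labels. *Ms4a15* OE cells are a pool in which a guide directs a CRISPR activation system to *Ms4a15*, a tetraspanin gene. Control cells are labelled wild type, and the methods add that they received empty lentivirus. According to the methods, the parental cells are mouse embryonic fibroblasts that express Cre-ERt2 and carry a conditional *Gpx4* allele, so both groups share this background. Nothing in the labels says whether the 3 libraries of a group came from separate cultures.

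Chemokines are small secreted proteins that direct cell migration. They are classed as CC, CXC or CX3C by the spacing of their first conserved cysteines, and most signal through G protein-coupled receptors that release Ca2+ from the ER. Atypical receptors bind chemokines without classical G protein signalling and mainly remove them. Fibroblasts are known sources of ligands that attract monocytes and neutrophils and of growth factors for macrophages, whereas the matching receptors sit mostly on leukocytes.

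The level used throughout is the authors' mean of normalized counts over all 6 libraries, that is, of read counts divided by a size factor for depth. This mean pools both groups, and no SD can be given for it. No difference between *Ms4a15* OE and control cells is reported, because the only values that separate the groups are those of the authors' own comparison, which were not used here. With 3 libraries in each group, the higher of the 2 group means lies between the pooled mean and 2 times that mean. A low pooled mean therefore limits the level in both groups. In a bulk sample, fewer cells of a type and less RNA per cell cannot be told apart. *Ms4a15* itself had a mean of 638 normalized counts, but this pooled value cannot check the label of any library.

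Most members were low. Of the 50, 14 (28%) reached 100 normalized counts, against 10440 (54.7%) of all genes listed. The median over members was 4.78 normalized counts, against 237 over all genes, and 23 members lay below the lower quartile of all genes, 3.34. At the upper end, 6 members reached 1000 normalized counts. These were *Csf1*, *Ccl2*, *Cxcl10*, *Cxcl12*, *Cxcl1* and *Ccl7*, and together they made up 89.5% of the summed mean of the members. *Csf1* alone made up 61.1%. Ligands and cytokines had a median of 11.3 normalized counts and receptors one of 1.75, and a single receptor, *Cxcr7*, was above 100.

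**Figure D1:**
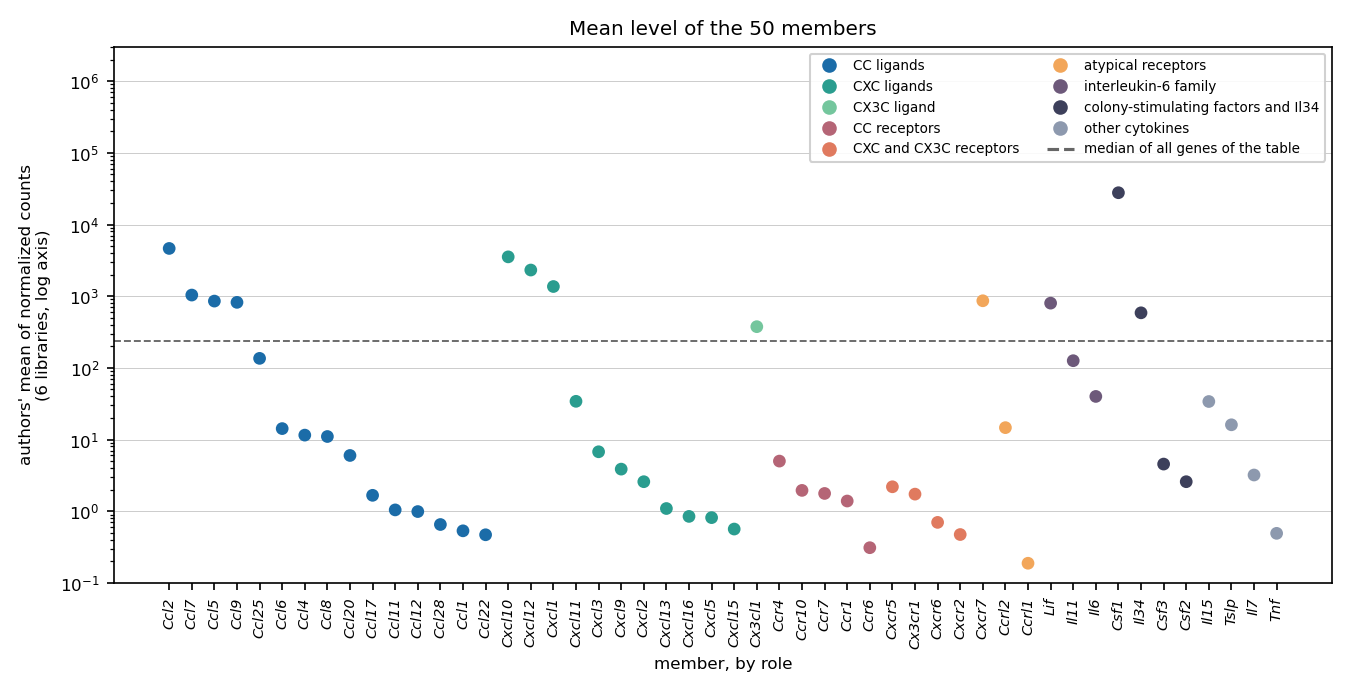
Authors' mean of normalized counts over the 6 libraries (log axis) for each of the 50 members, coloured by role; the dashed line is the median of all genes listed, 237. Of the 50 members 12 stand above the line, with *Csf1* highest at 27791 and *Ccrl1* lowest at 0.188.

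Among the 15 CC ligands, *Ccl2*, the main attractant of monocytes, had the highest level with a mean of 4641 normalized counts. *Ccl7*, a close relative that attracts the same cells, had 1038. *Ccl5*, which acts on T cells and monocytes, had 855, and *Ccl9*, a monocyte attractant found in rodents, had 821. *Ccl25*, best known from thymus and gut, had 136. Its exons share 204 bases with those of *Elavl1* on the opposite strand, and the strand setting of the counting is not given in the sources used here. The level of *Ccl25* may therefore include reads of *Elavl1* or lack some of its own. *Ccl6*, *Ccl4* and *Ccl8* lay between 11.03 and 14.2 normalized counts. The other 7, *Ccl20*, *Ccl17*, *Ccl11*, *Ccl12*, *Ccl28*, *Ccl1* and *Ccl22*, lay between 0.469 and 6.0.

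Per kilobase of transcript, the scale used here to compare different genes, *Ccl2* stood at 5708 normalized counts, *Ccl5* at 1607, *Ccl7* at 1296 and *Ccl9* at 273. *Ccl2* was thus 4.41 times *Ccl7* and 3098 times *Ccl12*, likewise a ligand of the monocyte receptor encoded by *Ccr2*. *Ccl12* had only 6 reads over all libraries, so the ratio to it is rough. The length correction moved *Ccl5*, whose longest coding transcript has 532 bases, from the 8th to the 4th place among members. It moved *Cxcl12*, with 5627 bases, from the 4th to the 7th. These moves depend on the length used. Per kilobase of coding sequence *Ccl5* was 7th and *Cxcl12* stayed 4th, and *Cxcl10* stood above *Ccl2*, with 12041 against 10452 normalized counts.

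Most of these ligands are neighbours. On chromosome 11 of GRCm38 (mm10), 6 CC ligand genes lie within 144 kb, starting with *Ccl2* at 82035577 and ending with *Ccl1* at 82179812. Only the first pair of this row was high. From *Ccl2* and *Ccl7*, which start 10.1 kb apart, the mean per kilobase dropped to 0.964 at *Ccl11*, which starts 12.1 kb further on. It was 1.84 at *Ccl12*, 21.6 at *Ccl8* and 0.872 at *Ccl1*. A further row on the same chromosome starts with *Ccl5* at 83525778. There the mean per kilobase was 1607 for *Ccl5*, 273 for *Ccl9*, 9.88 for *Ccl6* and 17.5 for *Ccl4*. *Ccl3*, whose span in the annotation overlaps that of *Ccl4*, was not among the genes listed.

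**Figure D2:**
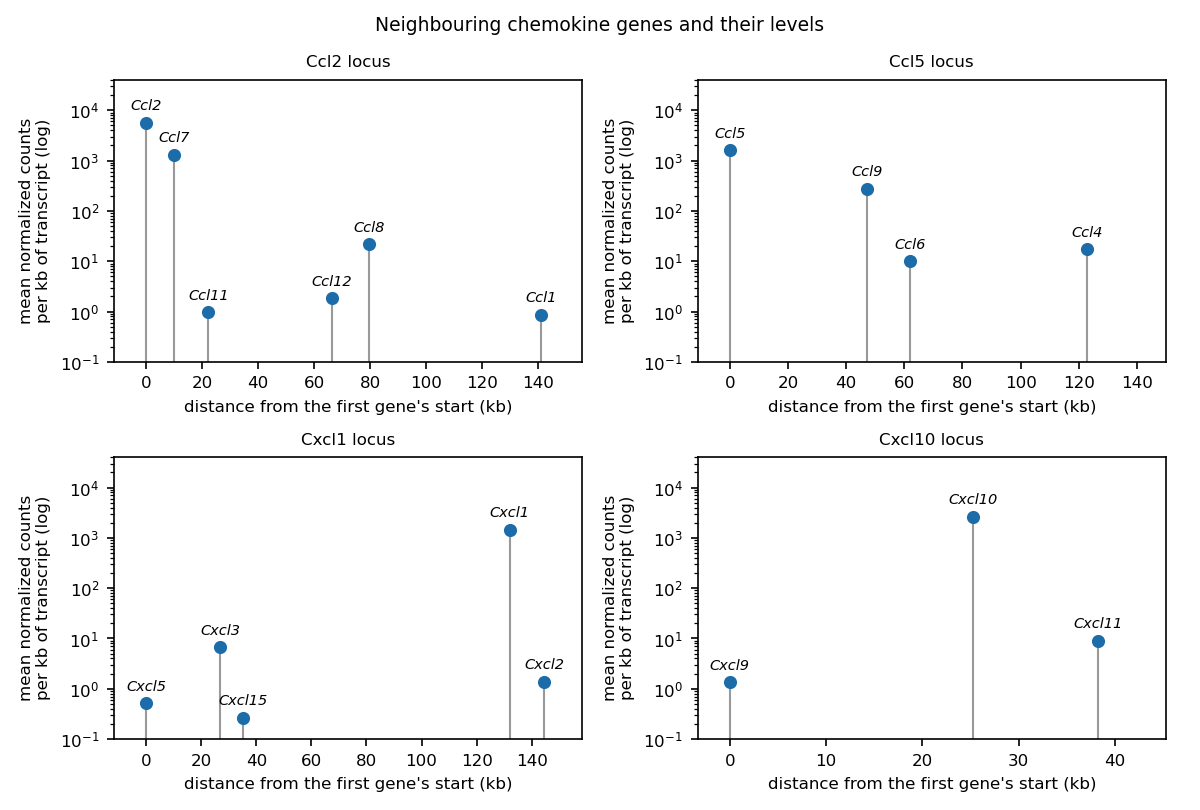
Mean normalized counts per kilobase of transcript (log axis) against the distance of each gene's lowest coordinate from that of the leftmost gene of its row (kb), for the CC ligand rows of chromosome 11 and the CXC ligand rows of chromosome 5. In each row 1 or 2 genes exceed 1000 per kilobase while a neighbour lies under 20.

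Of the 11 CXC ligands, 3 exceeded 1000 normalized counts and none of the others reached 100. *Cxcl10*, an interferon-inducible attractant of T cells, had a mean of 3540.1. *Cxcl12*, which retains haematopoietic cells in their niches, had 2319. *Cxcl1*, an attractant of neutrophils, had 1366. *Cxcl9* and *Cxcl11*, which share the receptor CXCR3 with *Cxcl10* and are likewise known as interferon-inducible, had 3.87 and 34.2. Per kilobase, *Cxcl10* was 1955 times *Cxcl9* and 291 times *Cxcl11*. The ratio to *Cxcl9* is rough, as this gene had 22 reads over all libraries. The annotation lists *Cxcl11* as a transcribed pseudogene in the reference strain, and 1582 of its exon bases are shared with *Gm2673* on the opposite strand. *Cxcl10* shares 133 exon bases with *Art3*, also on the opposite strand.

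The neutrophil attractants *Cxcl1*, *Cxcl2*, *Cxcl3*, *Cxcl5* and *Cxcl15* lie together within 147 kb on chromosome 5, and their levels were far apart. *Cxcl3* had a mean of 6.75 normalized counts, *Cxcl2* 2.58, *Cxcl5* 0.814 and *Cxcl15* 0.564, against 1366 for *Cxcl1*. Per kilobase, *Cxcl1* was 1032 times *Cxcl2* and 216 times *Cxcl3*. Both ratios are rough, as *Cxcl2* had 16 and *Cxcl3* 42 reads over all libraries. *Cxcl2* starts 12.7 kb from *Cxcl1*. *Cxcl13*, a B-cell attractant, had 1.09 and *Cxcl16*, made as a membrane protein, 0.847.

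The promoters of *Cxcl1* and *Cxcl2*, neighbours that differed in level, and of *Cxcl10*, the highest CXC ligand, are printed for comparison. They are the 250 bases before the transcription start in RefSeq on GRCm38.p6, read 5′ to 3′ on the strand of the gene. Capitals mark matches to an NF-kB motif, searched on both strands as GGG, any 5 bases and CC. Overlapping matches run together. The windows are chr5:90890995-90891244 on the forward strand for *Cxcl1*, chr5:90903649-90903898 on the forward strand for *Cxcl2*, and chr5:92348890-92349139 on the reverse strand for *Cxcl10*.
Cxcl1: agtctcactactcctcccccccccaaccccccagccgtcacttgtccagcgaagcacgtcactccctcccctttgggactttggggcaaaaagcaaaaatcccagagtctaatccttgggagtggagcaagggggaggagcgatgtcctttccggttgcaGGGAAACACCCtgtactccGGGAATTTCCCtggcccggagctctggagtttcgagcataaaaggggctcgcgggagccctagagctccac
Cxcl2: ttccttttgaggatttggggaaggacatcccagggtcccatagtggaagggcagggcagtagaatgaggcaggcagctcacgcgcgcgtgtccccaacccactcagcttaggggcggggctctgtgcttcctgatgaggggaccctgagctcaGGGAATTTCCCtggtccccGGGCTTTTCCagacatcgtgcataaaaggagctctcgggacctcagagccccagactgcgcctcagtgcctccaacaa
Cxcl10: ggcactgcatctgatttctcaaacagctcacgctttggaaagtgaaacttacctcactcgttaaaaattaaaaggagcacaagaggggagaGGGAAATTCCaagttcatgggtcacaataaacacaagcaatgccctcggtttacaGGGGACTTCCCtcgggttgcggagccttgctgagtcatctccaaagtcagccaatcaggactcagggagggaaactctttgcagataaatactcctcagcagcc

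*Cxcl1* and *Cxcl2* carried the same match, GGGAATTTCC, starting 71 bases before the start of *Cxcl1* and 97 bases before that of *Cxcl2*. Each had 1 further separate match. In *Cxcl10* the matches GGGAAATTCC and GGGGACTTCC started 159 and 104 bases before the start. *Cxcl10* also held a match to an interferon-response motif, searched on both strands as GAAA, any 2 bases and GAAA, starting 213 bases before the start, and to the AP-1 motif TGANTCA, at 74 bases. Matches to the NF-kB motif were found in high and low members. Of the 34 members whose RefSeq window was read, 7 of 10 at 100 normalized counts or more and 16 of 24 below that held a match. Windows on chromosome 18, which holds *Tslp*, were left out for members and all genes alike. Over the 27025 genes whose windows were read, 48.7% did, a gene with several starts being counted if any window matched. The AP-1 motif was held by 4 of the same 10 members (*Cxcl10*, *Ccl9*, *Lif* and *Il11*), by 2 of the 24 and by 7.82% of all genes. The motif TATAAA, searched on both strands, was held by 4 of the 10, by 8 of the 24 and by 14.3% of all genes. No window was read for *Ccl2*, *Ccl7*, *Ccl5* and *Il34*, which are also at 100 normalized counts or more. The interferon-response motif was held by *Cxcl10* alone among the 34, and by 3.46% of all genes. A match says only that these letters occur in the window.

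*Cx3cl1*, the only CX3C ligand, is made as a membrane protein and shed by ADAM10 and ADAM17. It had a mean of 376 normalized counts. *Adam10* and *Adam17* had 12492 and 4653. Of the 11 genes in a list of chemokine-processing and binding partners, 9 exceeded 1000 normalized counts, a level reached by 35.0% of all genes. The exceptions were *Mmp9* with 6.74 and *Dpp4*, whose product trims the ends of many chemokines, with 0.188, the value of 1 read in a single library. *Ext1* and *Ndst1*, which build the heparan sulphate that holds chemokines at the cell surface, had 4742 and 6155.

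Chemokine receptors were low, with 1 exception. The 5 CC receptors listed, *Ccr4*, *Ccr10*, *Ccr7*, *Ccr1* and *Ccr6*, had means between 0.310 and 5.01 normalized counts. *Cxcr5*, *Cx3cr1*, *Cxcr6* and *Cxcr2* lay between 0.473 and 2.19. *Cxcr2*, the receptor of *Cxcl1*, had 0.473, so neither group can have had a mean above 0.946. *Cx3cr1*, the receptor of *Cx3cl1*, had 1.73 and thus at most 3.46 in either group. *Ccr1*, a receptor of *Ccl5*, *Ccl7* and *Ccl9*, had 1.39. *Ccr2*, *Ccr3*, *Ccr8*, *Ccr9*, *Cxcr1*, *Cxcr3* and *Cxcr4* fit the rule but were not among the genes listed, so no level is given for them. Of 66 symbols in the annotation that fit the rule, 16 were not listed. They also include *Ackr1*, *Ccl3*, *Ccl19*, *Ccl24*, *Ccl26*, *Cxcl14* and *Cxcl17*.

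The exception was *Cxcr7*, the older symbol of *Ackr3*, an atypical receptor that takes up *Cxcl12*. Its mean was 864 normalized counts, or 282 per kilobase, against 412 per kilobase for *Cxcl12*. *Ccrl2*, a non-signalling relative of the chemokine receptors, had 14.7. *Ccrl1*, the older symbol of *Ackr4*, had 0.188, which was 1 read in 1 library. *Ackr2* appears under its older symbol *Ccbp2* and so fell outside the rule.

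Of the cytokines, *Csf1*, the growth factor of macrophages, had the highest level of all members, with a mean of 27791 normalized counts, which was above that of 99.1% of all genes listed. Per kilobase it stood at 6655, which was 1.17 times *Ccl2* and 20.4 times *Il34*, the other ligand of the receptor CSF1R. *Il34* had a mean of 587, and its exons share 22 bases with those of *Gm15894* and 75 with those of *Gm15895*, both on the opposite strand. *Csf2* and *Csf3*, the growth factors of granulocytes and macrophages, had 2.58 and 4.55. Per kilobase, *Csf1* was 2062 times *Csf2* and 2067 times *Csf3*. Both ratios are rough, as *Csf2* had 15 and *Csf3* 27 reads over all libraries.

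In the interleukin-6 family, whose members signal through the shared receptor chain encoded by *Il6st*, *Lif* had a mean of 800.3 normalized counts, *Il11* 126 and *Il6* 40.0. Per kilobase, *Lif* was 3.08 times *Il11* and 11.7 times *Il6*. The remaining cytokines were *Il15* with 33.9, the epithelial alarm signal *Tslp* with 16.1, *Il7* with 3.20 and *Tnf* with 0.491. *Tnf* thus had at most 0.983 in either group.

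The receptors of these cytokines were measured in the same cells. Of a list of 18 genes, 16 were listed and 9 exceeded 100 normalized counts, while 54.7% of all genes reached that level. The median of the list, 247, was close to the 237 of all genes. *Il6st* had 8776, with *Osmr* at 5107, *Il6ra* at 348, *Lifr* at 253 and *Il11ra1* at 241, so transcripts of receptor chains for *Lif*, *Il11* and *Il6* were all detected. The TNF receptors *Tnfrsf1a* and *Tnfrsf1b* had 5013 and 2072, while *Tnf* had fewer than 1. *Sdc1*, a proteoglycan that also binds *Il34*, had 6931. *Csf1r*, the receptor of *Csf1* and *Il34*, had 13.2, and *Il7r* had 0.188.

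Genes of NF-kB signalling, which drives many of these ligands in fibroblasts, were all detected. All 22 of the list exceeded 100 normalized counts and 14 of them 1000, with a median of 1722. Of all genes listed, 54.7% reached 100 and 35.0% reached 1000. *Nfkb1*, *Nfkb2* and *Rela*, which encode its subunits, had 4798, 4752 and 2869. *Nfkbia*, which encodes the inhibitor that retains them in the cytosol, had 2048. The receptors *Tlr2*, *Tlr3* and *Tlr4*, which sense microbial molecules, had 1789, 1589 and 959. These are transcript levels and do not measure signalling.

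**Figure D3:**
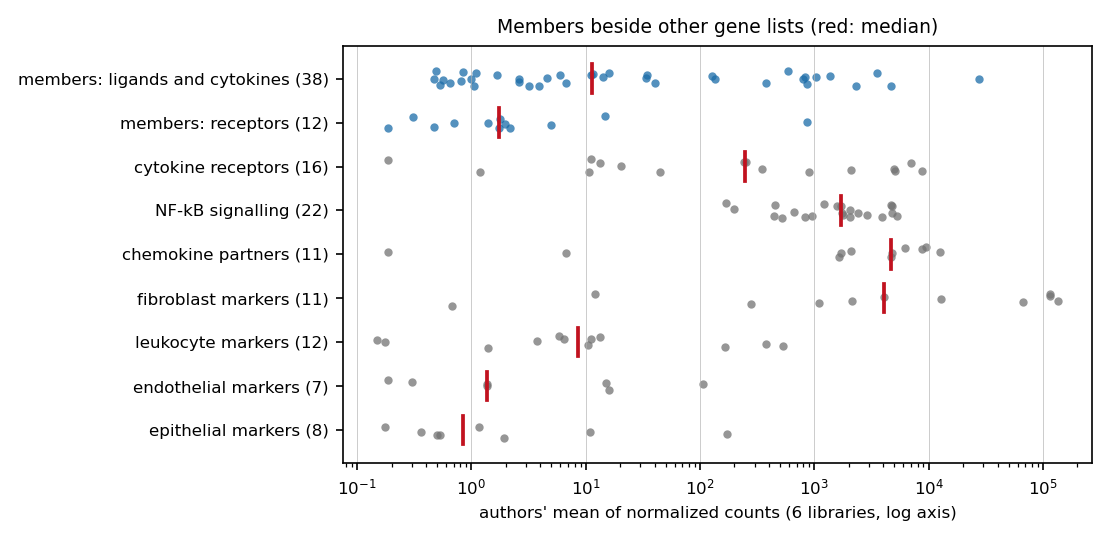
Authors' mean of normalized counts over the 6 libraries (log axis) for members and for the other gene lists, 1 point per gene, with the number of genes listed in brackets and the median in red. The chemokine receptors centre on 1.75 and the cytokine receptors on 247, and all NF-kB genes lie above 100. The median of all genes listed is 237.

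The labelled cell type was checked against markers. Of 11 fibroblast markers, 8 exceeded 1000 normalized counts, among them *Col1a2* with 135155 and *Vim* with 115135. *Lum* and *Dcn*, which mark many resting fibroblasts, had 0.675 and 12.1. Of 16 leukocyte markers, 12 were listed, with a median of 8.51 and a sum of 1124. The defining marker *Ptprc* had 11.1, *Itgam* 5.79 and *Cd3g* 0.151, whereas *Lyz2*, *Cd14* and *Cd68* had 534, 374 and 164. Of 7 endothelial markers, *Cdh5* alone exceeded 100, with 107, and of 8 epithelial markers *Krt14* alone, with 170. *Epcam* had 0.176. The part of other cells in the levels of single members was not tested.

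For low members the pooled mean could be resolved into whole reads of each library. Such a mean is a sum of whole reads, each multiplied by a fixed step for its library, and the smallest means in the table, those of a lone read, give these steps. They correspond to size factors of 0.887, 0.938, 0.946, 1.02, 1.11 and 1.14, for libraries named A to F in that order. No label or column name ties these libraries to a group. Groups were not inferred from values, and the columns of the authors' comparison, which may bear on this, were not used, so no library was assigned to *Ms4a15* OE or control. Of 33 members with a mean under 20 normalized counts, 29 had exactly 1 set of whole reads that gave the printed mean. For *Ccl8*, *Ccl6*, *Ccrl2* and *Tslp* 2 to 4 sets were possible, and none is given. The 29 members together held 386 reads, namely 90, 101, 30, 88, 36 and 41 in libraries A to F. By pairwise correlation, A, B and D also stood apart from C, E and F over 1800 low genes of the table. Whether other low genes also hold more reads in A, B and D was not tested. The higher totals there, and the same arrangement in single members below, are therefore not shown to be particular to the members.

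Of the ligands, *Ccl4*, which attracts monocytes and T cells, had 21, 21, 0, 20, 1 and 3 reads in libraries A to F. Libraries A, B and D held nearly all of them. *Ccl20*, which attracts cells through CCR6, had 10, 13, 2, 8, 1 and 0 reads, again with A, B and D above the others. *Cxcl9* had 6, 8, 1, 7, 0 and 0 reads, in the same arrangement.

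*Cxcl3* had 3, 4, 8, 4, 11 and 12 reads. Here libraries C, E and F were the higher ones. *Cxcl2* had 1, 4, 1, 2, 2 and 6 reads and was highest in F and B. *Ccl17*, a ligand of CCR4, had 1, 0, 5, 0, 3 and 1 reads, highest in C and E.

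Of the receptors, *Ccr4* had 16, 3, 1, 7, 0 and 1 reads. Libraries A, B and D were above the others, and 16 of the 28 reads came from library A alone. *Ccr7*, which guides lymphocytes and dendritic cells to lymph nodes, had 5, 1, 0, 4, 0 and 0 reads, and *Ccr1* had 1, 4, 0, 3, 0 and 0. Both were seen only in A, B and D, at counts near the 3 reads that a count of 0 allows. *Cxcr5* had 0, 7, 0, 4, 1 and 1 reads, so libraries A and B differed as much as any pair. *Ccr10* had 1, 1, 3, 1, 4 and 2 reads and *Cx3cr1* 3, 2, 2, 1, 1 and 1, with a read in every library.

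Of the cytokines, *Csf3* had 4, 7, 2, 8, 4 and 2 reads, so libraries A and E held the same number before any correction for depth. *Csf2* had 3, 5, 0, 6, 1 and 0 reads, with A, B and D above the others. *Il7* had 6, 8, 1, 2, 1 and 0 reads, highest in A and B. *Tnf* had 0, 1, 0, 1, 1 and 0.

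Of the 29 members, 5 had a read in every library and 14 had no more than 3 reads in any. *Ccl1* had all of its 3 reads in library B, and *Cxcl15* all of its 3 in library A. The remaining low members, *Ccl11*, *Ccl12*, *Ccl22*, *Ccl28*, *Cxcl5*, *Cxcl13*, *Cxcl16*, *Ccr6*, *Cxcr2* and *Cxcr6*, had 2 to 7 reads over all 6 libraries. Reads are not corrected for depth here, and the highest size factor was 1.28 times the lowest. Exons of *Cxcl16*, *Ccrl1*, *Cxcr5*, *Il7*, *Csf2* and *Cx3cr1* share bases with another gene on the opposite strand. The overlap ranged from 78 bases for *Cx3cr1* to 552 for *Cxcl16*. Their counts may therefore include reads of the other gene or lack some of their own.

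**Figure D4:**
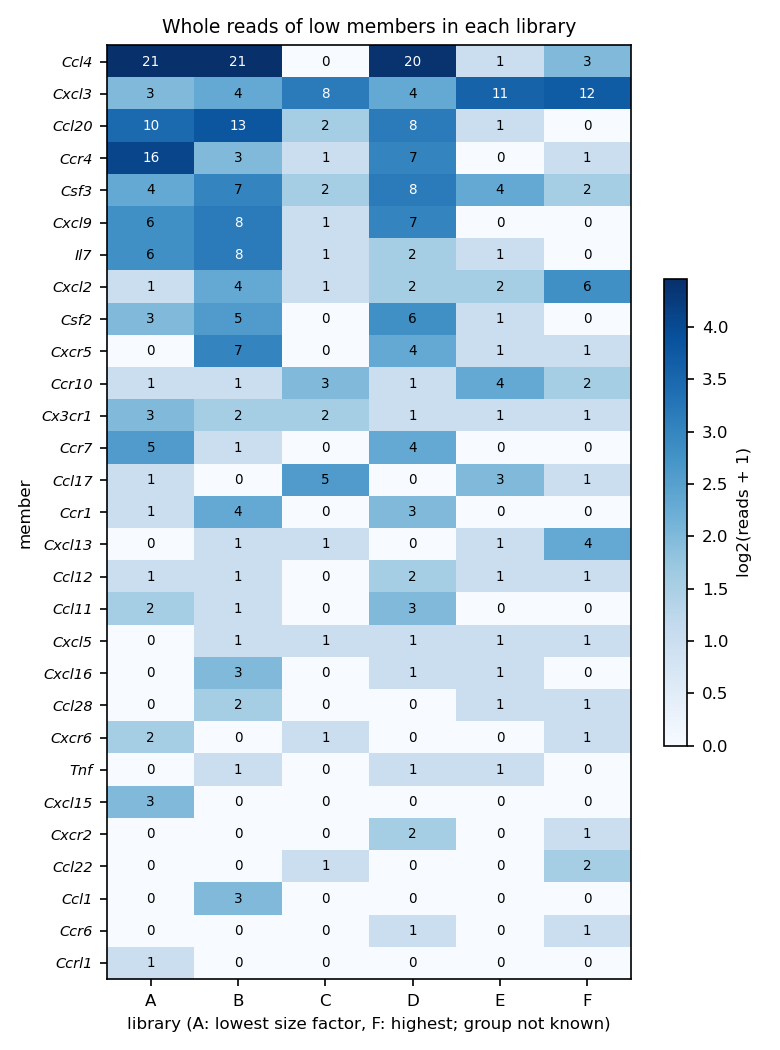
Whole reads of the 29 low members in each library, from the lowest size factor (A) to the highest (F), shaded by log2(reads + 1) and with the count written in each cell. *Ccl4*, *Ccl20* and *Cxcl9* are darkest in libraries A, B and D and *Cxcl3* in C, E and F, and no library was assigned to a group.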

How the data were processed

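The authors isolated poly(A) RNA from 3 *Ms4a15* OE and 3 control libraries, aligned reads to mm10 with STAR, counted per gene with HTSeq-count and ran DESeq2, per the methods. The submitters' processing notes instead name TopHat, Cufflinks and Cuffdiff beside HTSeq and DESeq2. The signal used is the mean of size-factor-normalized counts in the authors' deposited table, pooled over 6 libraries. The table's other 5 columns hold the authors' own comparison (log2 fold change, its standard error, p-value, adjusted p-value, direction) and were not used. A test between groups was planned only for values of single libraries, so none was run. Genes without a read are not listed.

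Lengths are those of the longest coding transcript in GENCODE vM21 and positions those of RefSeq on GRCm38.p6, found for all 50 members; 2 were matched by older symbol. Whole reads were searched with at most 120 reads per library and a tolerance of the rounding of the printed mean, and the search was tested on simulated data. All 3066 distinct means under 8 gave exactly 1 set. The sequencing depth of the libraries is unknown beyond their size factors. A count of 0 allows up to 3 reads, for counting error only. Members and lists were chosen with earlier results of these data known. All members found may be named, with other genes only from fixed lists of cytokine receptors, NF-kB signalling, chemokine partners and cell type markers. Computations used Python 3.11.15, numpy 2.4.6, pandas 2.3.3, scipy 1.17.1 and matplotlib 3.10.9.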

Additional observations from a re-analysis of the deposited data

How the results depend on the processing

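No paired analysis was possible because the pooled means, and the reads recovered from them, carry no group or replicate number. For the same reason another tool, another filter on counts and leaving out each replicate were planned for the comparison of groups and not run. Among the 22 members at 10 normalized counts or more, the share at 100 or more was 63.6%, against 28% of all members, because this filter removes low members only. The median level of members was 2.53 on the log2 scale with a pseudocount of 1 and 2.28 with 0.1. Of the 10 members highest per kilobase of transcript, 9 were also among the 10 highest per kilobase of coding length and 9 without length correction. With a tolerance 10 times as wide, 28 members had exactly 1 set of whole reads, and with at most 60 reads per library 29 did, each with the set given before. Levels pool both groups, so they cannot show a member that differs between them. For the 17 members at or above 20 normalized counts the spread between libraries is unknown.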

Other observations

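Over low genes of the table, the 6 unassigned libraries formed 2 clusters, judged by their pairwise correlations alone. For 1800 genes with a mean of 2 to 8 normalized counts, whole reads were divided by the size factor, brought to the log2 scale with a pseudocount of 1 and centred on each gene's mean over the libraries. Libraries A, B and D were alike, with Pearson's r across genes of 0.347 for A and B, 0.355 for A and D and 0.413 for B and D. Libraries C, E and F were alike as well, with 0.393 for C and E, 0.377 for C and F and 0.437 for E and F. The 9 pairs across the clusters had r between -0.603 and -0.572. Centring pushes r below 0 for unlike libraries, genes are not independent replicates, and no test is given. No label says what separates the clusters.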
